A study of Mus musculus with 4 samples.

Results

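Type I interferon-stimulated genes are described here across the cell classes of the mouse brain after stroke. The set holds 42 genes, chosen by symbol and matched to the gene symbols of the deposited count matrices, which list 55357 genes; all 42 were found. Single-cell RNA sequencing was run on the hemisphere that carried the infarct. All 4 groups were wild-type mice with an ischemic stroke that were given hydrogel microspheres in the infarct cavity at day 5 and were sampled at day 14. MAPS mice received microspheres without vesicles. The other 3 groups received microspheres that carried extracellular vesicles of astrocytes, named by the treatment in the labels. They are UT EV+MAPS (written UT EV), IL-4 C1q EV+MAPS (written IL-4/C1q EV) and IL-1a TNFa C1q EV+MAPS (written IL-1a/TNFa/C1q EV). The labels give no strain, age or sex, and they do not say what UT stands for or how many animals were pooled. Untreated healthy controls, which the labels mention, were not analysed here. Each group is 1 library, so no difference below has a replicate check or a p-value, and the group, its library and its animals cannot be told apart.

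Type I interferons are secreted proteins that cells release when they sense foreign or misplaced nucleic acid. They bind a shared receptor, whose kinases activate transcription factors of the Stat family. With Irf9 these form a complex that enters the nucleus and binds a short DNA element, the interferon-stimulated response element, in front of their target genes. Many of the products block steps of viral replication, and others feed back on the signal. In the brain microglia and endothelial cells are well-known responders, and the same genes are used as a readout of interferon exposure after injury.

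Cells were sorted into classes by their own marker genes rather than by clustering. The 4 libraries kept 13101 (MAPS), 12301 (UT EV), 13599 (IL-4/C1q EV) and 14218 (IL-1a/TNFa/C1q EV) cells after filters and doublet removal, with median unique molecular identifier (UMI) counts per cell of 4465, 2633, 2422 and 2534. Between 85.1% and 92.7% of kept cells entered a class. Microglia were the largest class, with 6821 (MAPS), 5109 (UT EV), 5554 (IL-4/C1q EV) and 6021 (IL-1a/TNFa/C1q EV) cells. Where values of the 4 libraries follow each other below with no names, the order is MAPS, UT EV, then IL-1a/TNFa/C1q EV, then IL-4/C1q EV. A median of 7 to 11 of the 12 microglial markers was seen in each of these cells, against 1 marker of the next best class. The boundary was sharp for microglia, where 2.87% to 10.2% of cells lay near a gate limit, and for endothelial cells, at 5.22% to 7.58%. It was not sharp for monocytes/macrophages and border macrophages, where 40.2% to 53.2% did in the libraries used. MAPS stood apart from the vesicle libraries: its cells were deeper, and their median mitochondrial share was 1.40% against 0.552% to 0.577%. Barcodes started at 1233 UMIs for IL-1a/TNFa/C1q EV and at 500 elsewhere. Any pair of libraries shared 43 to 64 cell barcodes.

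In microglia, the resident immune cells of the brain, 39 of the 42 interferon-stimulated genes were higher in IL-4/C1q EV than in UT EV. A gene is called higher or lower here where the 95% counting interval of the ratio of its levels lies wholly beyond 1.5-fold, and it counts as measured with at least 30 UMIs over the 2 libraries. By that rule 0.966% of all measured microglial genes were higher, and no member was lower (0.585%). The median member differed by 1.60 on the log2 scale, the median measured gene by -0.06. The 3 members that missed the call were also above UT EV: Samhd1, which degrades deoxynucleotides, at 1.55-fold, Dtx3l, a ubiquitin ligase, at 1.58-fold, and Cmpk2, a mitochondrial nucleotide kinase, at 2.14-fold with an interval of 1.41 to 3.30. Levels are UMIs summed over the cells of a class per 1000000 UMIs of that class (CPM), and intervals cover counting error only. A level summed over a class cannot tell more responding cells from more RNA per cell. Most microglial genes had higher CPM in MAPS, with a median gene at -1.08 to -1.29 on the log2 scale in the vesicle libraries over MAPS. The place of MAPS in an order of levels, here and below, therefore depends on the scaling.

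**Figure D1:**
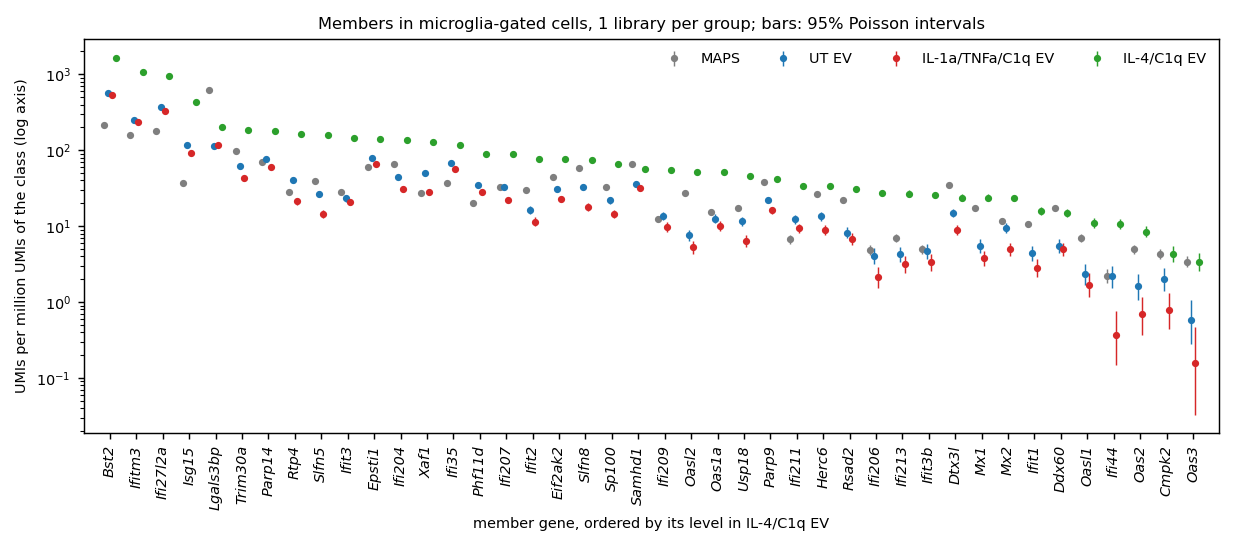
Levels of the 42 interferon-stimulated genes in microglia of the 4 libraries. The vertical axis is CPM on a log scale, genes are ordered by their level in IL-4/C1q EV, and each point is 1 library with its exact 95% Poisson interval. The IL-4/C1q EV point lies above those of IL-1a/TNFa/C1q EV and UT EV for every gene, while MAPS is the highest for some, among them Lgals3bp.

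The Ifit proteins bind foreign RNA, and all 4 were higher in IL-4/C1q EV microglia. Ifit3 was at 28.2 CPM in MAPS and 23.3 in UT EV, 20.9 for IL-1a/TNFa/C1q EV, against 145 in IL-4/C1q EV, so that IL-4/C1q EV stood apart from 3 libraries close to each other. Its ratio to UT EV was 6.23, with an interval of 5.60 to 6.94. The other members of the family stood at 3.60-fold (Ifit1), 4.74-fold (Ifit2) and 5.52-fold (Ifit3b). Isg15, a ubiquitin-like protein that is attached to other proteins, had 37.0, 117, 93.1 and 437 CPM in the same order, and its ratio was 3.73 (3.55 to 3.92). Usp18, the protease that removes it and that also dampens the receptor, was 3.94-fold higher, and 6 of the 7 genes of this group passed.

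All 5 oligoadenylate synthetase genes passed, with a median of 2.40 on the log2 scale. Enzymes of this family make a messenger that switches on RNase L. Oasl2 had 27.6 CPM in MAPS and 7.60 in UT EV, 5.31 for IL-1a/TNFa/C1q EV, against 52.2 in IL-4/C1q EV. Its ratio of 6.87 to UT EV (5.72 to 8.32) was the highest of the set in microglia, and MAPS lay between IL-4/C1q EV and the other libraries. Mx1 and Mx2, dynamin-like GTPases that trap viral particles, were 4.33-fold and 2.46-fold higher.

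Among membrane and secreted proteins, Bst2, which tethers budding virions to the cell surface, had 218, 570, 529 and 1657 CPM. Ifitm3, which blocks fusion of viruses in endosomes, had 158, 253, 238 and 1062 CPM. In both genes IL-4/C1q EV was highest and MAPS lowest, with IL-1a/TNFa/C1q EV and UT EV close together. Their ratios to UT EV were 2.91 (2.84 to 2.98) and 4.19 (4.05 to 4.33). Rtp4, a chaperone of membrane receptors, was 4.04-fold higher, and Lgals3bp, a secreted galectin-binding glycoprotein, 1.79-fold.

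The Ifi200 family of DNA-binding proteins passed in full, 6 of 6, with Ifi206 at 6.65-fold (5.17 to 8.67) and Ifi213 at 6.31-fold. Ifi206 was at 4.85 CPM in MAPS and 4.09 in UT EV, 2.12 for IL-1a/TNFa/C1q EV, against 27.2 in IL-4/C1q EV. All 9 nuclear, Schlafen and other genes passed as well. Slfn5, of the Schlafen family, had 39.3, 26.8, 14.3 and 158 CPM and a ratio of 5.90 (5.34 to 6.53). The lowest ratios of the called genes were those of Ifi35 (1.71), Epsti1 (1.75) and Lgals3bp. Eif2ak2, the kinase that stops translation on double-stranded RNA, and Ddx60, a helicase, were 2.47-fold and 2.68-fold higher. Of the 3 nucleotide metabolism genes Rsad2, or viperin, which makes a chain-terminating nucleotide, passed at 3.76-fold (3.12 to 4.57).

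The difference was spread over the microglial population. With each cell thinned to 1000 UMIs, the median microglial cell of IL-4/C1q EV showed 4 of the 42 genes, and that of each other library 1. Only 1.33% of IL-4/C1q EV microglia showed none, against 29.8% in MAPS, 23.2% in UT EV and 29.2% in IL-1a/TNFa/C1q EV. At least 5 members were seen in 43.5% of IL-4/C1q EV microglia (exact interval 42.2% to 44.8%), against 5.65%, 4.54% and 2.79%. Thinning left out 59, 133, 0 and 138 shallower cells. Without thinning the shares with at least 5 members were 47.3%, 35.4%, 21.8% and 84.6%, and there the deeper MAPS cells came second. A UMI of Ifit3 was found in 11.98% of thinned IL-4/C1q EV microglia and in 1.85% of those of MAPS, 1.69% in UT EV and 1.38% for IL-1a/TNFa/C1q EV. Without thinning the shares were 26.8%, 6.39%, 4.52% and 3.39% in that order. Oligodendrocytes, whose members' summed level was the lowest or near it in each library, had Ifit3 in 2.07% of thinned IL-4/C1q EV cells and in 0.515%, 0.506% and 1.40% of the others (unthinned 5.51%, 1.48%, 2.26% and 3.18%). In IL-4/C1q EV their median depth was 3850 UMIs, against 2470 in microglia. Among thinned cells the microglial share of IL-1a/TNFa/C1q EV was no higher than the oligodendrocyte share, and those of IL-4/C1q EV, UT EV and MAPS were above it.

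**Figure D2:**
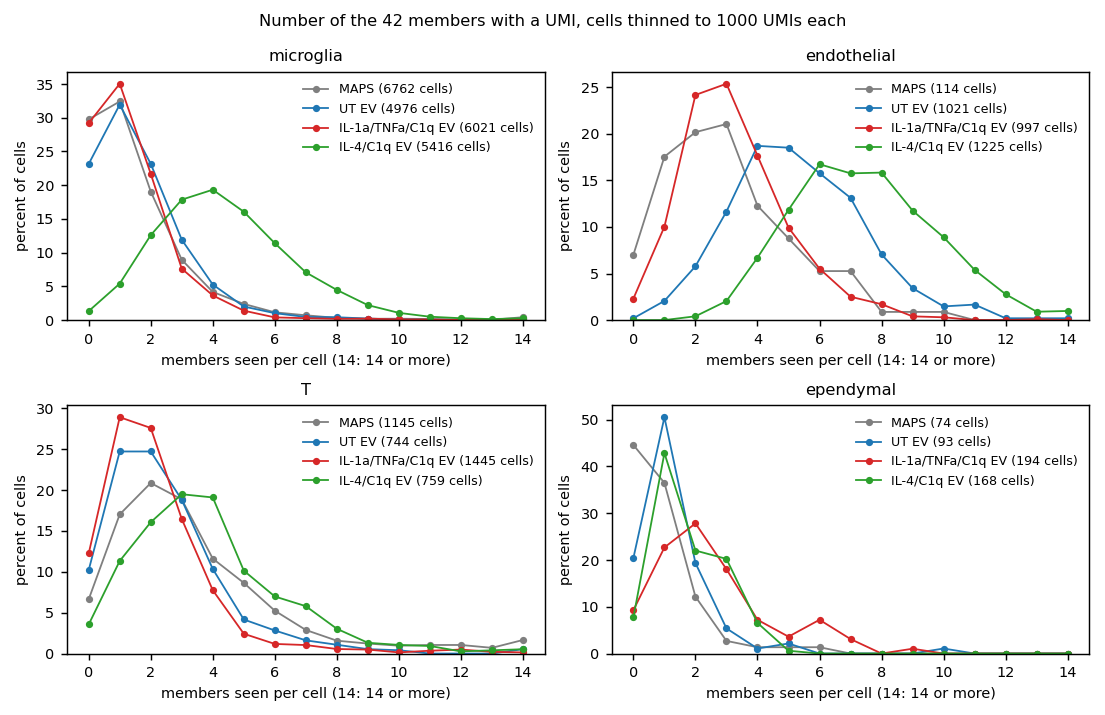
Number of the 42 interferon-stimulated genes seen per cell after thinning to 1000 UMIs, in microglia, endothelial cells, T cells and ependymal cells. The horizontal axis is the number of members with at least 1 UMI, the vertical axis the percent of cells, and each line is 1 library. In microglia and endothelial cells the IL-4/C1q EV line is shifted to higher numbers, with medians of 4 and 7, and in ependymal cells the IL-1a/TNFa/C1q EV line is.

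Among markers of other cells in the gated microglia, the monocyte/macrophage list had the highest sum, and it was close in these 2 libraries. Its 10 markers summed to 2844 CPM in UT EV and 2944 in IL-4/C1q EV (0 and 1 of them at 0), and to 1812 in MAPS and 4800 in IL-1a/TNFa/C1q EV. The 11 endothelial markers summed to 42.4 to 71.7 CPM in the 4 libraries, and 6 erythroid markers, mainly haemoglobin, had 14.8, 1134, 509 and 559 CPM. The summed microglial markers were at 9473 CPM in UT EV and 8923 in IL-4/C1q EV. What part these lists have in the result was not tested. Kept cells outside any class had the same library on top: their summed member level was 2091, 4026, 3357 and 8536 CPM.

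The IL-4/C1q EV difference from UT EV was present in most other classes, with fewer members past the rule. The pair had at least 50 cells on both sides in 14 classes, and no member was lower in any of them, where 0.201% to 4.21% of all genes were. A member could count as measured through its UMIs in the higher library alone, so the counts and medians outside microglia are given as a description. Medians of classes with few measured members cannot be ranked against that of microglia. Ifitm3 was past the rule in 12 of the 14 classes, and Bst2, Isg15 and Ifi27l2a each in 10. Ifit3 passed in 8 of the 11 classes where it was measured, and Rtp4 in 6 of 10. Parp9, Mx1, Mx2, Epsti1 and Ifi35 passed in microglia and in no other class where they were measured, and Dtx3l, Cmpk2 and Samhd1 in none.

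**Figure D3:**
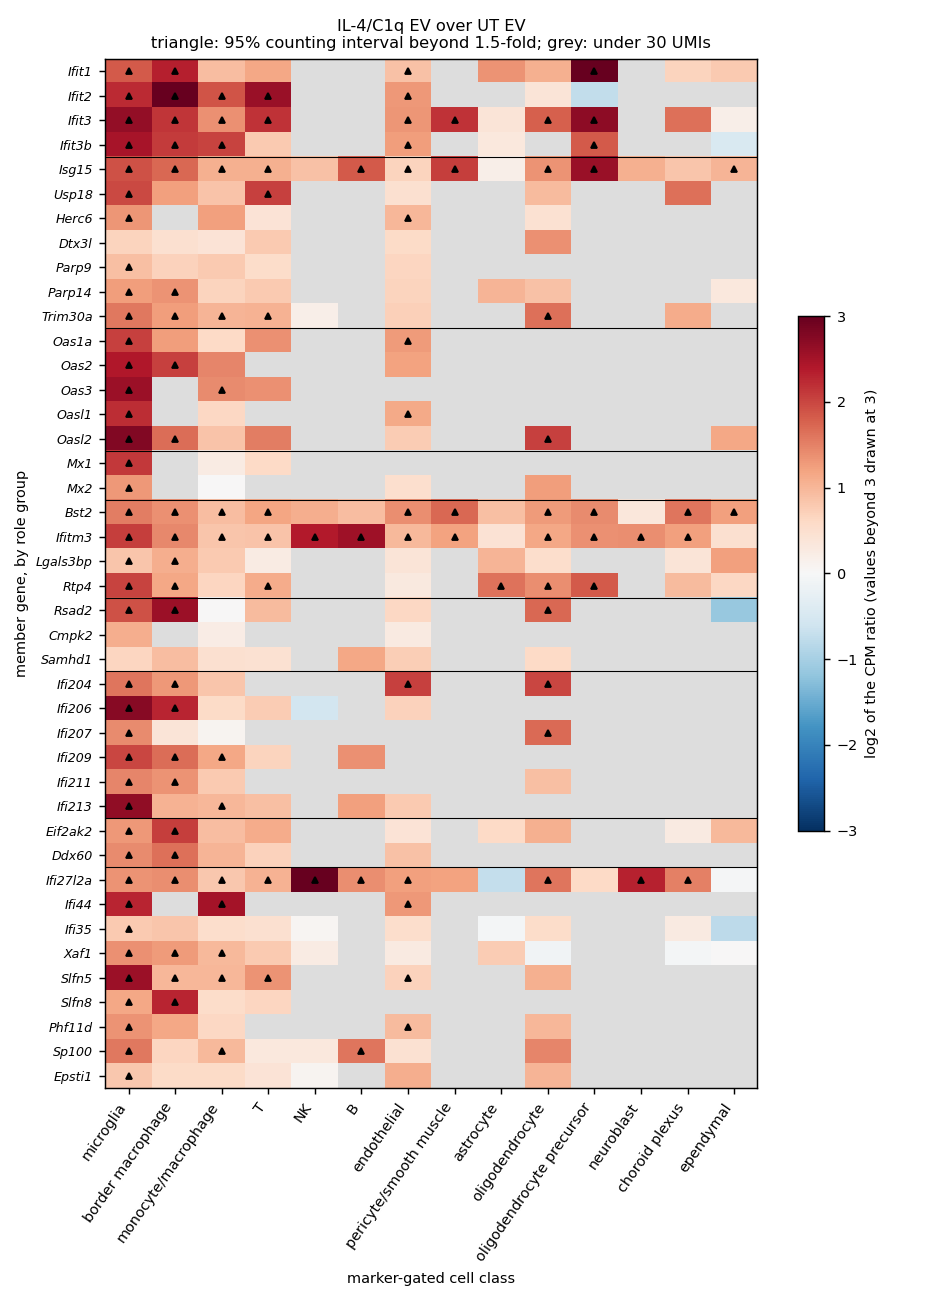
Ratio of IL-4/C1q EV to UT EV for each interferon-stimulated gene (rows) and cell class (columns), as colour on a log2 scale; grey cells had fewer than 30 UMIs and triangles mark a 95% interval wholly beyond 1.5-fold. The microglial column is marked for 39 genes and the ependymal column for 2.

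Border macrophages, which sit around vessels and in the meninges, had 24 of 35 measured members higher (2.13% of all genes), with a median of 1.34 on the log2 scale. Ifit2 was at 20.4 CPM in UT EV, 20.7 for IL-1a/TNFa/C1q EV, against 174 in IL-4/C1q EV, a ratio of 8.55 to UT EV that rests on 11 UMIs there (4.60 to 17.6). Ifit3 was 4.40-fold higher, Isg15 3.32-fold and Rsad2 5.91-fold. In monocytes/macrophages 15 of 42 members passed (1.05% of all genes), and the median was 0.83. Ifi44 had the highest ratio there, 5.61 (2.54 to 14.6) on 7 UMIs in UT EV, followed by Ifit3b at 4.09, Ifit2 at 3.68 and Ifit3 at 2.57. Rsad2 was level in these cells, at 100.03 and 100.42 CPM, with an interval of the ratio from 0.816 to 1.24. With cells thinned to 1000 UMIs, which leaves fewer UMIs to call from, 8 border macrophage and 6 monocyte/macrophage members passed. Past 2-fold, 11 and 4 did. Counts under other settings, here and below, have no share of all genes beside them, so they cannot be set against other genes.

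T cells had 10 of 33 measured members higher in IL-4/C1q EV than in UT EV (0.699% of all genes), with a median of 0.85. Ifit3 was at 85.2 CPM in MAPS and 27.5 in UT EV, 32.2 for IL-1a/TNFa/C1q EV, against 123 in IL-4/C1q EV, a ratio to UT EV of 4.47 (3.23 to 6.30). Ifit2 was 6.05-fold, Usp18 4.13-fold and Bst2 2.25-fold higher. Among the 3 vesicle libraries IL-4/C1q EV T cells were highest for each of these, while MAPS T cells lay above all of them for Ifit2 and Usp18. Most T cell genes had higher CPM in MAPS, with a median gene at -0.95 on the log2 scale for IL-4/C1q EV over MAPS. The place of MAPS is thus not particular to these genes. The 8 NK cell markers also differed in the gated T cells, with 270 CPM in UT EV and 694 in IL-4/C1q EV (2 of 8 at 0 in both), and the 9 neutrophil markers had 15.0 and 41.0 CPM (3 and 2 of 9 at 0). What part either list has in the result was not tested. In NK cells 2 of 10 measured members passed (0.901% of all genes), Ifi27l2a, a small membrane protein, and Ifitm3. In B cells 4 of 8 did (3.18%), Ifitm3, Ifi27l2a, Isg15 and Sp100, a nuclear body protein, on 55 and 77 cells. Thinning left 5 calls in T cells, none in NK cells and 1 in B cells.

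Endothelial cells, which line the vessels, had high levels in UT EV already, and 15 of 36 measured members were higher still in IL-4/C1q EV (0.857% of all genes), with a median of 0.75. Bst2 was at 165 CPM in MAPS and 1084 in UT EV, 633 for IL-1a/TNFa/C1q EV, against 2857 in IL-4/C1q EV, and the last was 2.64-fold above UT EV (2.54 to 2.74). Ifit3 had 79.5, 388, 130 and 977 CPM and a ratio of 2.52, Ifi44 a ratio of 2.47 and Ifit3b one of 2.40. The 4 libraries were in the same order for Bst2 and Ifit3: IL-4/C1q EV, UT EV, IL-1a/TNFa/C1q EV, MAPS. Rtp4 (1.23-fold), Xaf1, a partner of an apoptosis inhibitor (1.21-fold), and Cmpk2 (1.20-fold) had the smallest ratios. Haemoglobin and other erythroid markers in gated endothelial cells were at 23715 CPM in UT EV, 17585 for IL-1a/TNFa/C1q EV, 9529 in IL-4/C1q EV and 5004 in MAPS. The 9 neutrophil markers summed in these cells to 8.93 CPM in UT EV (3 of 9 at 0), against 78.6 in IL-4/C1q EV (1 of 9 at 0). What part either list has in the result was not tested. Thinning left 9 endothelial calls, and 6 were past 2-fold. Pericytes and smooth muscle cells had 4 of 5 measured members higher (0.403%): Isg15, Bst2, Ifitm3 and Ifit3, at 2.32-fold to 4.52-fold.

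Oligodendrocytes, the myelinating cells, had 11 of 28 measured members higher (0.557% of all genes), with a median of 1.11. Ifi27l2a was at 46.9 CPM in MAPS and 83.5 in UT EV, 148 for IL-1a/TNFa/C1q EV, against 255 in IL-4/C1q EV, 3.06-fold above UT EV (2.74 to 3.42). Ifit3 was 3.44-fold, Oasl2 4.14-fold and Bst2 2.44-fold higher, whereas Xaf1 was level in the 4 libraries at 82.9 to 101 CPM. In oligodendrocyte precursors 7 of 9 measured members were higher (0.282%), and Ifit3 had 28.1 CPM in UT EV, 56.1 for IL-1a/TNFa/C1q EV, against 179 in IL-4/C1q EV. With cells called doublets kept, 19 oligodendrocyte members passed, and thinning left 2 in oligodendrocytes and 1 in their precursors. The 10 monocyte/macrophage markers in gated oligodendrocytes also differed, with 321 CPM in UT EV and 791 in IL-4/C1q EV (2 and 1 of 10 at 0). The 9 neutrophil markers summed there to 6.56 CPM in UT EV (4 of 9 at 0), against 104 in IL-4/C1q EV (1 of 9 at 0). What part either list has in the result was not tested.

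Free RNA is the background of a droplet assay, and microglial RNA gives a gauge of it. In IL-4/C1q EV, the 12 microglial markers summed in oligodendrocytes to 4.16% of their microglial level, while the summed members stood at 14.6% and Ifit3 at 21.4%. In oligodendrocyte precursors the markers were at 3.02%, the summed members at 15.8% and Ifit3 at 123% of the microglial level. Other members there were nearer the markers: Ifi27l2a at 5.11%, Bst2 at 6.44%, Isg15 at 12.2% and Ifitm3 at 14.4%, with Rtp4 at 70.2%. Endothelial cells held the markers at 21.6%, the summed members at 320%, Ifit3 at 673% and Ifitm3 at 941%, but Ifi27l2a at 27.8%. This gauge covers free RNA of microglia only. Ifit3 was also above its microglial level in neutrophils of IL-4/C1q EV, at 422%. What part free RNA of any class has in the result was not tested.

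Few members passed in astrocytes and ependymal cells. In astrocytes 1 of 13 measured members was higher (0.491% of all genes), Rtp4, at 3.08-fold on 19 and 48 UMIs. Isg15 was at 3.86 CPM in MAPS and 70.1 in UT EV, 33.4 for IL-1a/TNFa/C1q EV, against 79.5 in IL-4/C1q EV, and its ratio of 1.13 had an interval of 0.823 to 1.56. Ifi27l2a was below UT EV at 0.61-fold, with an interval that crossed the limit (0.461 to 0.791). In ependymal cells, the ciliated lining of the ventricles, Bst2 (2.36-fold) and Isg15 (2.01-fold) were the 2 of 15 measured members past the rule (0.336%), and the median was 0.49. Neuroblasts had 2 of 4 measured members higher (0.148%) and choroid plexus cells 3 of 13 (0.446%): Ifi27l2a and Ifitm3 in both, and Bst2 in choroid plexus.

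Classes were also set apart within a gene, by the distance between the intervals of its ratio in 2 classes. The widest gap was that of Ifit3b, 5.52-fold in microglia (4.34 to 7.09) against 0.73-fold in ependymal cells (0.476 to 1.13). It was followed by Ifi27l2a, 11.5-fold in NK cells on 2 UMIs in UT EV (3.002 to 98.0) and 0.61-fold in astrocytes. Ifit3 came next, 6.23-fold in microglia and 1.14-fold in ependymal cells (0.848 to 1.54). Ifit2 ranged from 8.55-fold in border macrophages to 0.60-fold in oligodendrocyte precursors (0.268 to 1.29). Ifi206 was at 6.65-fold in microglia and 0.68-fold in NK cells, and Rsad2 at 3.76-fold in microglia and 0.46-fold in ependymal cells (0.219 to 0.936). Low ratios of these gaps came from astrocytes, ependymal cells, oligodendrocyte precursors and NK cells, and high ratios from microglia, border macrophages and NK cells. The distance between counting intervals favours a class with many cells, such as microglia, whose intervals are narrow. It therefore does not rank the classes by the size of the ratio.

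Set against the same UT EV library, IL-1a/TNFa/C1q EV had lower members in endothelial cells and monocytes/macrophages and higher ones in oligodendrocytes, their precursors, choroid plexus and ependymal cells. In endothelial cells 22 of 34 measured members were lower (0.787% of all genes) and none was higher (0.437%), with a median of -1.22. Isg15 was at 652 CPM against 1851 in UT EV, 0.352-fold (0.334 to 0.371), with MAPS at 138 and IL-4/C1q EV at 2921. All 4 Ifit genes were lower, from 0.21-fold for Ifit2 to 0.38-fold for Ifit1. Oasl1 (0.196-fold) had the lowest ratio, and Epsti1 was the only measured member above 1, at 1.14-fold (0.670 to 1.94). The 10 monocyte/macrophage markers in the gated endothelial cells summed to 1715 CPM, against 709 in UT EV (1 of 10 at 0 in both), and their part in the result was not tested. Past 2-fold, 12 endothelial members were lower.

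**Figure D4:**
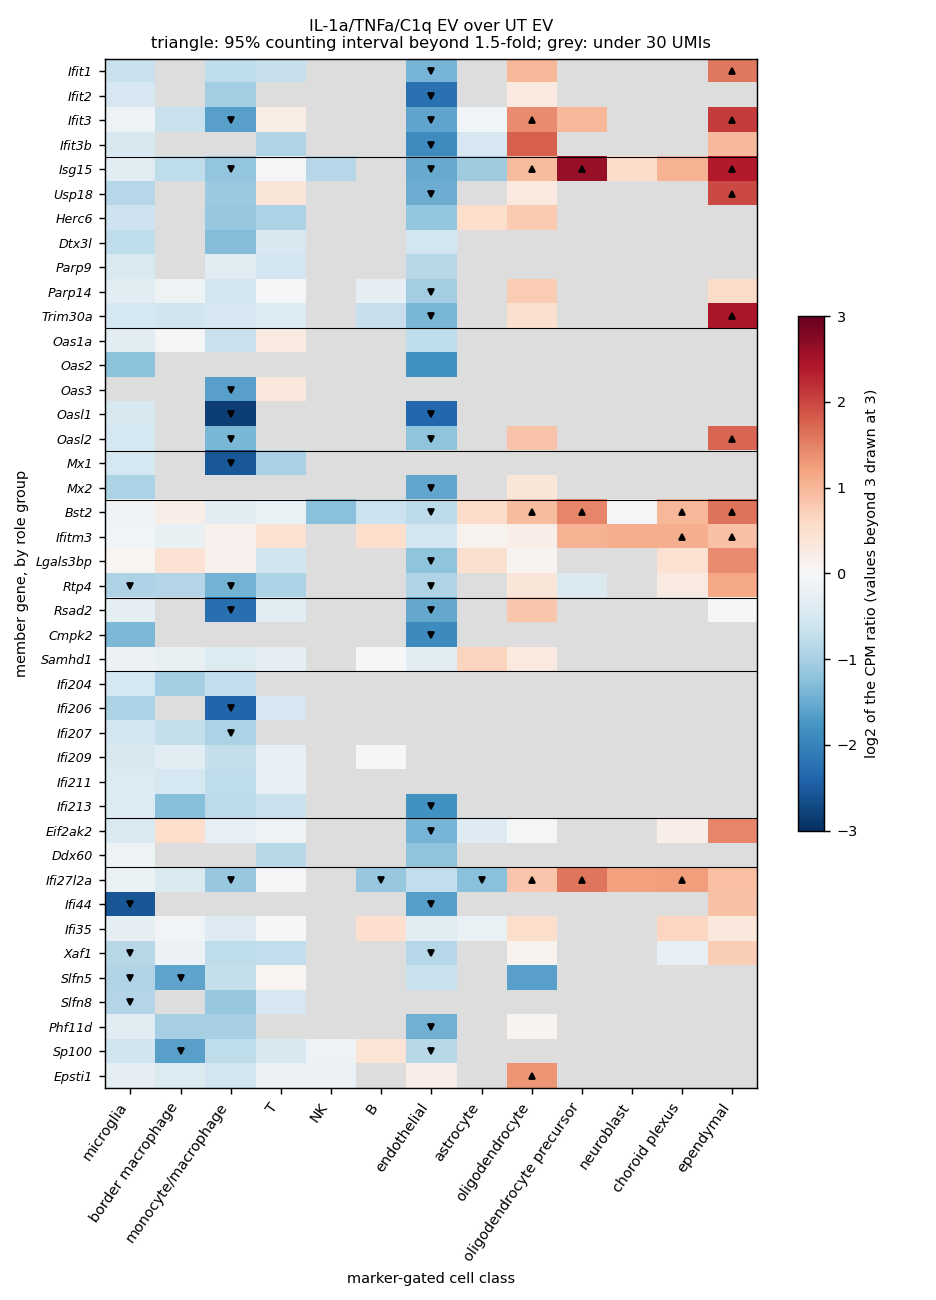
Ratio of IL-1a/TNFa/C1q EV to UT EV for each interferon-stimulated gene (rows) and cell class (columns), as colour on a log2 scale; grey cells had fewer than 30 UMIs and triangles mark a 95% interval wholly beyond 1.5-fold. The endothelial column is marked as lower for 22 genes and the ependymal column as higher for 8.

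In monocytes/macrophages 11 of 36 measured members were lower (2.25% of all genes) and none higher (0.447%), with a median of -0.78. Oasl1, at 0.141-fold, rested on 6 UMIs, whereas Rsad2 had 100.03 CPM in UT EV and 20.8 in IL-1a/TNFa/C1q EV, 0.208-fold (0.146 to 0.292). Ifi27l2a (0.453-fold) and Isg15 (0.443-fold) were lower by a similar factor. After thinning 2 members were lower in these cells. In microglia 5 of 41 measured members were lower (0.597%) and none higher (0.388%), with a median of -0.49: Ifi44 (0.17-fold), Rtp4 (0.523-fold), Slfn5 (0.534-fold), Slfn8 (0.545-fold) and Xaf1 (0.561-fold). That count rested on the scaling, since 1 member was lower with DESeq2 size factors and 2 with TMM factors, which shift the median microglial gene of this pair by 0.20 and 0.15. Border macrophages had 2 of 23 measured members lower (0.992%), Slfn5 and Sp100, and T cells none of 32 (0.484%).

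The ependymal cells of IL-1a/TNFa/C1q EV went the other way. There 8 of 18 measured members were higher than in UT EV (0.625% of all genes) and none lower (0.353%), with a median of 1.29. Isg15 was at 17.1 CPM in MAPS and 142 in UT EV, 741 for IL-1a/TNFa/C1q EV, against 285 in IL-4/C1q EV, 5.24-fold above UT EV (4.13 to 6.73). Ifit3 had 40.0, 132, 566 and 150 CPM and a ratio of 4.28 (3.34 to 5.57). In both genes the IL-1a/TNFa/C1q EV library was highest, which was not the case in microglia or endothelial cells. Trim30a, a tripartite motif protein, was 5.48-fold higher on 5 UMIs in UT EV, and Usp18 3.98-fold, Oasl2 3.34-fold, Bst2 3.10-fold, Ifit1 2.99-fold and Ifitm3 1.84-fold. These values come from 194 cells, against 114 in UT EV and 180 in IL-4/C1q EV, and 4 members passed after thinning. At least 5 members were seen in 14.9% of thinned ependymal cells of IL-1a/TNFa/C1q EV (10.2% to 20.8%), against 2.70% in MAPS, 3.23% in UT EV and 0.595% in IL-4/C1q EV.

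Oligodendrocytes had 5 of 24 measured members higher in IL-1a/TNFa/C1q EV (0.624% of all genes): Ifit3 (2.69-fold), Epsti1 (2.49-fold), Bst2 and Isg15 (both 1.92-fold) and Ifi27l2a (1.78-fold). Of these 1 passed after thinning and none past 2-fold. In these gated cells the 9 neutrophil markers summed to 66.5 CPM, against 6.56 in UT EV (1 and 4 of 9 at 0). The 8 NK cell markers summed to 12.5 CPM against 1.95 (1 and 3 of 8 at 0), and the 8 fibroblast markers to 36.1 against 3.54 (2 and 3 of 8 at 0). What part these lists have in the result was not tested. Oligodendrocyte precursors had 3 of 6 higher (0.418%), with Isg15 at 8.87 CPM in UT EV and 54.5 in IL-1a/TNFa/C1q EV, and choroid plexus cells 3 of 9 (1.55%), Ifi27l2a, Ifitm3 and Bst2. With a marker lead of 2, chosen after seeing the data, the count in precursors was 0. In astrocytes Ifi27l2a was lower, at 0.419-fold (1 of 11 measured, 0.356% of all genes), in a library whose gated astrocytes held monocyte/macrophage markers at 1047 CPM against 272 (2 and 4 of 10 at 0) and B cell markers at 712 against 9.08 (3 and 6 of 7 at 0), and their part in the result was not tested. The same gene was lower in B cells (1 of 9, 1.02%), at 0.453-fold. Within this pair 8 members were past the rule in opposite directions in different classes: Ifit1, Ifit3, Isg15, Usp18, Trim30a, Oasl2, Bst2 and Ifi27l2a. Isg15, for example, was higher in oligodendrocytes, their precursors and ependymal cells and lower in endothelial cells and monocytes/macrophages.

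The direct ratio of IL-4/C1q EV to IL-1a/TNFa/C1q EV shares its libraries with the comparisons above. In microglia all 42 members were higher (1.64% of all genes), with a median of 2.19, and in endothelial cells 35 of 36 (1.93%), with a median of 2.08. Monocytes/macrophages had 37 of 40 higher (2.16%), border macrophages 31 of 36 (2.33%) and T cells 20 of 33 (0.781%). Neutrophils, which reached 50 cells in these 2 libraries only, had 24 of 34 higher (3.17%), from 56 and 402 cells. Their Isg15 was at 675 CPM in IL-1a/TNFa/C1q EV, against 3543 in IL-4/C1q EV, a ratio of 5.25 (4.17 to 6.69), and Rsad2 at 88.8 and 921, a ratio of 10.4 (5.59 to 21.8). Slfn5 was 9.89-fold and Ifi27l2a 7.18-fold higher in them, whereas Ifit1 and Ifit3b rested on 2 UMIs and 1 UMI in the lower library, and Usp18, Oas1a and Oas2 had none there. B cells had 8 of 11 higher (1.85%), NK cells 5 of 10 (1.12%), oligodendrocytes 4 of 30 (0.465%), their precursors 3 of 8 (0.474%) and astrocytes 3 of 14 (0.774%). Rtp4 was 6.61-fold higher in astrocytes and 4.76-fold in precursors, and Slfn5 6.46-fold in oligodendrocytes. In ependymal cells the direction was reversed: 4 of 21 members were lower in IL-4/C1q EV (0.740%), Ifit3 at 0.265-fold, Usp18 at 0.327-fold, Ifit3b at 0.369-fold and Isg15 at 0.384-fold, and none was higher (0.223%).

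**Figure D5:**
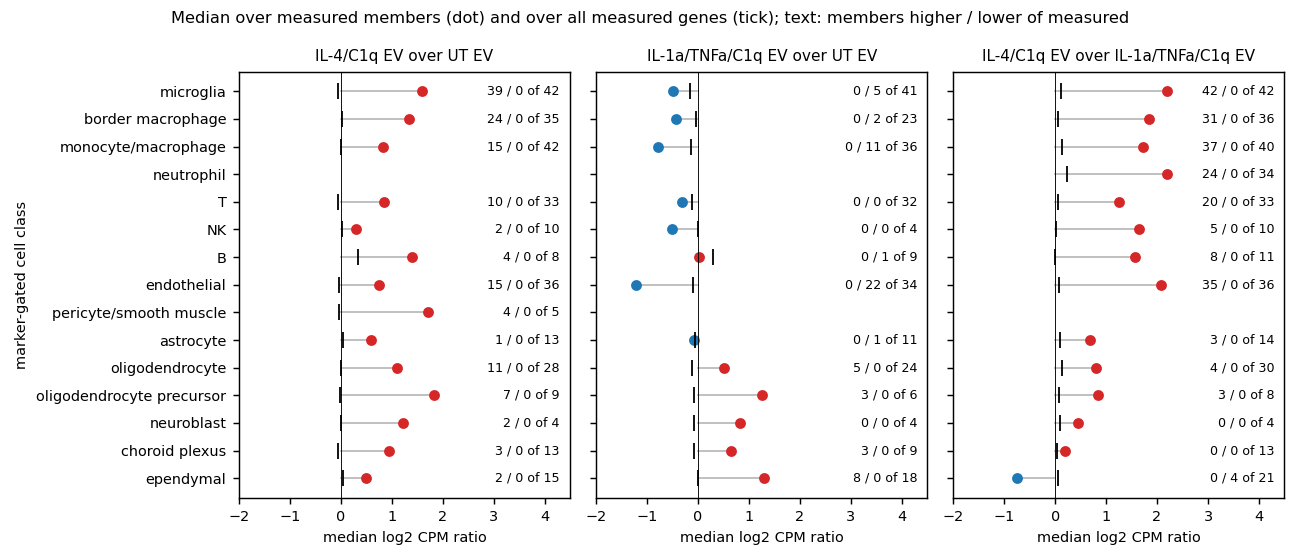
Median log2 ratio of the measured interferon-stimulated genes by cell class for 3 pairs of the vesicle libraries, with the median of all measured genes of the same class and pair. The horizontal axis is the log2 ratio and the text at the right gives how many members were higher and lower of those measured. IL-4/C1q EV over UT EV has positive medians in all 14 classes, from 0.29 in NK cells to 1.83 in oligodendrocyte precursors. These 2 medians rest on 10 and 9 measured members, against 42 in microglia. Members can enter through the higher library alone, so the medians do not rank the classes. IL-1a/TNFa/C1q EV over UT EV runs from -1.22 in endothelial to 1.29 in ependymal cells.

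Against MAPS the ratios depended on the scaling, and most genes had lower CPM in the vesicle libraries. The median microglial gene stood at -1.08 to -1.29 on the log2 scale in the 3 pairs, and other scalings raised it by 0.84 to 1.22. In microglia IL-4/C1q EV had 28 of 42 members higher than MAPS (7.53% of all genes) and 1 lower (53.8%), UT EV 8 higher (8.27%) and 15 lower (52.2%), and IL-1a/TNFa/C1q EV 3 higher (8.87%) and 26 lower (58.0%). The median member stood at -0.55 in UT EV microglia over MAPS, which became 0.29 with TMM factors, and at 1.29 in IL-4/C1q EV. Isg15 (11.8-fold), Bst2 (7.59-fold) and Ifitm3 (6.71-fold) were far above MAPS in IL-4/C1q EV. Lgals3bp was the member below it, with 613 CPM in MAPS and 113 in UT EV, 118 for IL-1a/TNFa/C1q EV, against 202 in IL-4/C1q EV. In endothelial cells IL-4/C1q EV had 19 members higher than MAPS (6.70%) and none lower (27.3%), on 132 MAPS cells. UT EV had 12 higher (6.85%) and 1 lower (26.7%) in these cells, and IL-1a/TNFa/C1q EV 6 higher (8.89%) and 11 lower (33.1%). In T cells 10 of 41 members were lower in IL-4/C1q EV than in MAPS (35.2% of all genes) and 4 higher (7.71%). The lower count ran from 2 to 11 over the alternatives, and the median of -0.59 became 0.26 with DESeq2 size factors. Ifit1 had 136 CPM in MAPS T cells, 22.1 in UT EV, 13.7 for IL-1a/TNFa/C1q EV, against 49.5 in IL-4/C1q EV, while Isg15 had 176, 285, 272 and 594. The 2 genes thus put MAPS at opposite ends of the order in the same cells.

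The class with the highest level of each member differed among the libraries. The summed member level in endothelial cells was 3883 CPM in MAPS and 11411 in UT EV, 6354 for IL-1a/TNFa/C1q EV, against 21658 in IL-4/C1q EV, and in microglia 2241, 2268, 1903 and 6761. Neutrophils of IL-4/C1q EV had the highest sum of any class and library, 26807 CPM, and oligodendrocytes of MAPS the lowest, 265. In UT EV 20 of the 42 members were highest in endothelial cells, in MAPS 19 in T cells and 13 in endothelial cells, and in IL-4/C1q EV 20 in neutrophils and 10 in endothelial cells. In IL-1a/TNFa/C1q EV 12 members were highest in neutrophils, 7 each in border macrophages and endothelial cells, and 6 in ependymal cells. These orders are over the classes with at least 50 cells in the library, so neutrophils enter only in the last 2.

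Genes around the pathway were counted from 5 lists of 55 genes. Of the interferon genes themselves, Ifnb1, which encodes interferon beta, was the 1 measured in microglia of 11 listed, with 19 UMIs in MAPS and 11 in UT EV, 25 for IL-1a/TNFa/C1q EV, against 44 in IL-4/C1q EV. Its ratio of IL-4/C1q EV to UT EV was 4.22 (2.14 to 9.05). Among signal transducers Stat2 was 2.35-fold higher in microglia, and among regulatory factors 1 of 6 was higher, Irf7, the factor that amplifies interferon production, with 78.1 CPM against 15.4 and a ratio of 5.08 (4.45 to 5.82). Of the nucleic acid sensors 4 of 11 measured were higher, Dhx58 (3.29-fold), Zbp1 (3.09-fold), Ddx58 (2.47-fold) and Ifih1 (2.31-fold). Of genes known mainly for their answer to interferon gamma 3 of 12 measured were, the GTPases Irgm1 (2.44-fold), Iigp1 (1.96-fold) and Igtp (1.92-fold). None of the genes of these lists was lower in microglia of IL-4/C1q EV than in those of UT EV. Of all measured microglial genes of this pair 0.966% were higher and 0.585% lower. The absence of lower genes is thus near the share of all genes.

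Endothelial cells showed Irf7 at 180 CPM in UT EV, 73.4 for IL-1a/TNFa/C1q EV, against 405 in IL-4/C1q EV, the order of Bst2 and Ifit3 in these 3 libraries. Zbp1, a sensor of left-handed nucleic acid, was past the rule in both directions as well (2.99-fold and 0.35-fold), for IL-4/C1q EV and IL-1a/TNFa/C1q EV over UT EV. Cxcl9, a chemokine known for its answer to interferon gamma, did not follow: it had 2.23 CPM in UT EV, 32.3 for IL-1a/TNFa/C1q EV, against 25.9 in IL-4/C1q EV. In T cells Irf7 and Zbp1 were 2.25-fold and 1.97-fold higher in IL-4/C1q EV, while Ifng, which encodes interferon gamma itself, was lower, with 287 CPM against 519 in UT EV. In oligodendrocytes of IL-4/C1q EV Irf9 was 2.19-fold higher than in UT EV. In those of IL-1a/TNFa/C1q EV 3 genes of the gamma list were higher (0.624% of all genes), Gbp2, Iigp1 and Igtp, at 2.07-fold to 4.84-fold.

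Across the 53 sums of a library and class, the genes outside the set that were most like its mean level were Irf7 (Pearson's r = 0.891), Dhx58 (0.870), Rnf213 (0.860), Slfn2 (0.835) and H2-T23 (0.835). The comparison was made over 12646 genes, and sums of 1 library share its depth and handling. Within the set, Parp14 (0.887), Slfn5 (0.867) and Trim30a (0.859) were close to the mean and Mx2 (0.349) was far from it.

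The response element was looked for in the 250 bases in front of each start site, taken from RefSeq on build GRCm38.p6, for 33 members with a window. The authors' counts were made on GRCm39, so these coordinates are not those of their build. The motif GAAANNGAAA, read on both strands, was found in 16 of the 33 members (48.5%) and in 17 of their 37 windows. Of all genes with a window 3.46% hold it, and of all 32851 windows 2.98%. Some matched windows, such as those of Ifit3 and Ifit3b, are near copies and were counted separately. The motif TTCNNNGAA, the core of the element known from the answer to interferon gamma, was found in 5 of the 33 members. Of all genes with a window 8.13% hold it, and of all windows 7.02%. Members with a GAAANNGAAA match had a median ratio of 3.75 in microglia for IL-4/C1q EV over UT EV (2.25 to 6.65, 16 genes), and members without a match one of 2.53 (1.55 to 6.87, 17 genes). The windows of Isg15, Ifit3, Bst2, Ifitm3 and Oasl2 are shown because Isg15, Ifit3, Bst2 and Ifitm3 were higher in the most classes among members with a window, and Oasl2 had the highest microglial ratio. Capitals mark GAAANNGAAA or its reverse complement TTTCNNTTTC. The windows are chr4:156200819-156201068 on the minus strand (Isg15), chr19:34583279-34583528 on the plus strand (Ifit3), chr8:71537473-71537722 on the minus strand (Bst2), chr7:141010745-141010994 on the minus strand (Ifitm3) and chr5:114896684-114896933 on the plus strand (Oasl2), each written 5′ to 3′ towards the start site.
Isg15: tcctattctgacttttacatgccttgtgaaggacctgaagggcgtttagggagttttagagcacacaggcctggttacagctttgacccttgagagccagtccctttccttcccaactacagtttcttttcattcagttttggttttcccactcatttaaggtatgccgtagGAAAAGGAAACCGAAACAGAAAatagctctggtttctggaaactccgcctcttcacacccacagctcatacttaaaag
Ifit3: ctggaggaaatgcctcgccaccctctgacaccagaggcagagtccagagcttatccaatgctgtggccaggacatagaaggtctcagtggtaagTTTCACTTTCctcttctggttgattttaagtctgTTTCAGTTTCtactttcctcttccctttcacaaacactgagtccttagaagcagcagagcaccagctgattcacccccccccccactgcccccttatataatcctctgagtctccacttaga
Bst2: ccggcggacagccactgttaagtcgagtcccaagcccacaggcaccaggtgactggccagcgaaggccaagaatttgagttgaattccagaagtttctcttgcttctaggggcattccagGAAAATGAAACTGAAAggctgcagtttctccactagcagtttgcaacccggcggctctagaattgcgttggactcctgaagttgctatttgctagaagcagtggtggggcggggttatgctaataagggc
Ifitm3: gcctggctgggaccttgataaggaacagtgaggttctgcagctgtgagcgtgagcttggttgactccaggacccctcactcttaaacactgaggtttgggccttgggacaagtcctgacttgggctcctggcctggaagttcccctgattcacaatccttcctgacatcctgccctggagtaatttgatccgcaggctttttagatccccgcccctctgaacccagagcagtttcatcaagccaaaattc
Oasl2: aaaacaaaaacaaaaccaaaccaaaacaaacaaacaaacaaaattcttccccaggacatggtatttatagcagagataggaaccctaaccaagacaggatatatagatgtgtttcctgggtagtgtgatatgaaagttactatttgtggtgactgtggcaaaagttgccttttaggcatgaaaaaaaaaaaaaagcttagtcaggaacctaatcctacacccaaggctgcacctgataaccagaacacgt
Isg15 holds 3 overlapping matches, Bst2 2 overlapping ones and Ifit3 2 separate ones on the reverse strand. Ifitm3 and Oasl2 hold none in this window, so a match was not shared by all of the genes shown. A match is a description of the letters only.

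Some members have near copies in the genome, and reads of such genes cannot always be told apart. Of the 60-base words in the last 500 bases of their transcripts, where these libraries are read, 32 of the 42 members shared none with another gene. Ifi211 shared 72.3% (with Ifi205), Ifi209 61.5% (with Ifi214) and Oas1a 51.2% (with Oas1g), and their counts are uncertain to that degree. Ifit3 shared 12.9% of its words with Ifit3b, Ifi213 10.2%, Ifitm3 7.71% and Ifi206 7.26%. Sp100 shared 5.47%, Slfn8 0.907% and Oas3 0.454%. The other members, Isg15, Bst2, Oasl2 and Rsad2 among them, shared none.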

How the data were processed

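The authors deposited whole-number UMI counts (genes by barcodes, not normalized), made from 10x 3′ libraries of 4 groups. The matrices were written by Cell Ranger 8.0.1, per the file headers, whereas per the submitters' processing notes the build was GRCm39 and the tools Seurat 4.1.0, Cell Ranger 7.0.0 and bcl2fastq 5.0.1. Total counts per library were 45691141 to 81189155 UMIs.

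Cells needed 500 UMIs, 300 genes and a mitochondrial share of 20% or less, and 3.64% to 5.29% per library were removed as doublets with Scrublet in scanpy 1.11.5. A cell entered a class when it held at least 3 of its markers and a share of that list at least 1.5 times that of any other class. UMIs were summed per class and library, and classes with at least 50 cells in both libraries were compared. Ratios of CPM carry exact conditional 95% intervals (scipy 1.17.1, Python 3.11.15). They were tried on counts simulated with the Poisson error they assume, which cannot show how they hold under variation between cells or animals. With 1 library per group no test was made. TMM factors (edgeR 4.0.16) and DESeq2 1.42.0 size factors served only as other scalings.

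The members and lists were chosen with earlier results of these data known. In each class the 4 called members with the highest lower bound in IL-4/C1q EV over UT EV were named, with any called the other way, the 6 widest gaps between classes and the 5 genes most like the members. Members named beyond this were chosen after their values were seen. Other choices tried were a stricter gate, thinning to 1000 UMIs, a floor of 1500 UMIs, doublets kept, 2-fold and other UMI minimums. A marker lead of 2 was added after seeing the data. Some genes of the lists are not reported here.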

Additional observations from a re-analysis of the deposited data

How the results depend on the processing

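The count of microglial members higher in IL-4/C1q EV than in UT EV stayed at 35 to 39 under the 9 alternatives. Of the recomputed counts, 621 stayed within 1.5 times the reported count and 107 did not. The 621 include counts that were 0 under every setting, such as microglial members lower in IL-4/C1q EV than in UT EV. They therefore overstate how stable the other counts were. The settings that moved the most counts were 2-fold (29 moved, 55 stayed) and thinning to 1000 UMIs (24 moved, 60 stayed). Counts under other settings have no share of all genes beside them. No paired analysis was possible because each group is 1 library. The depth limits the rarer classes, and library and animal cannot be told apart from the group.

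With cells thinned to 1000 UMIs, fewer UMIs were left and the members higher in IL-4/C1q EV than in UT EV were 9 in endothelial cells, 6 in monocytes/macrophages, 5 in T cells, 2 in oligodendrocytes and 0 in ependymal cells. For IL-1a/TNFa/C1q EV over UT EV, thinning left 2 lower in microglia, 2 in monocytes/macrophages and 0 in astrocytes, and 4 higher in ependymal cells and 1 in oligodendrocytes. The medians of that pair then moved to 1.94 in ependymal cells and -0.76 in astrocytes. At 2-fold, the members higher in IL-4/C1q EV were 6 in endothelial cells, 6 in oligodendrocytes, 4 in monocytes/macrophages, 4 in T cells and 0 in astrocytes and ependymal cells. In IL-1a/TNFa/C1q EV over UT EV, 12 were then lower in endothelial cells, 1 in microglia and 0 in astrocytes, and 4 were higher in ependymal cells and 0 in oligodendrocytes. With doublet calls ignored, IL-4/C1q EV had 19 members higher in oligodendrocytes (median 1.44) and 5 in astrocytes.

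Astrocytes had 2 members higher in IL-4/C1q EV with the stricter gate, 3 with a minimum of 10 UMIs and 0 with a floor of 1500 UMIs. With a marker lead of 2, an alternative chosen after seeing the data, 2 were lower in IL-1a/TNFa/C1q EV astrocytes and 1 was higher in IL-4/C1q EV ependymal cells. With a minimum of 10 UMIs 1 member was lower in IL-1a/TNFa/C1q EV oligodendrocytes. The astrocyte median of IL-1a/TNFa/C1q EV over UT EV changed sign, to 0.094 with the stricter gate, 0.039 with DESeq2 size factors and 0.076 with no UMI minimum, and with no minimum the ependymal median was 0.85. The members lower in IL-1a/TNFa/C1q EV microglia numbered 1 with DESeq2 size factors and 2 with TMM factors. Medians against MAPS changed sign with the scaling: UT EV microglia to 0.29 (TMM) and 0.47 (DESeq2), IL-1a/TNFa/C1q EV microglia to 0.044 (DESeq2), IL-1a/TNFa/C1q EV endothelial cells to 0.32 (TMM) and 0.23 (DESeq2), and IL-4/C1q EV T cells to 0.26 (DESeq2). Apart from the smaller number of UMIs or cells that thinning, floors and gates leave, the cause was not tested.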
